A study of Mus musculus with 34 samples.

Results

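STARR-seq tests whether a piece of DNA raises transcription when it sits in a reporter plasmid: fragments are cloned into the transcribed part of the reporter, so that an active fragment copies itself into RNA. A peak therefore reports what the sequence can do outside its chromosome, whereas acetylation of histone H3 at lysine 27 (H3K27ac) is a mark of active enhancers and promoters in place, and trimethylation at lysine 4 (H3K4me3) marks active promoters. The regions described here are distal STARR enhancers without H3K27ac in LPS-activated mouse B cells: STARR peaks inside open chromatin that lay more than 1 kb from every H3K4me3 peak and overlapped no H3K27ac peak. They were chosen by these measured peak calls, so the peaks themselves are described and not tested. They numbered 2615 of the 11808 distinct STARR peaks in open chromatin, or 22.1% (95% Wilson interval 21.4% to 22.9%). Of the 4197 distal STARR peaks they were 62.3% (60.8% to 63.8%), and the other 1582 overlapped an H3K27ac peak.

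All cells were CD43- splenic B cells of C56BL/6J mice (spelled as deposited) aged 6 to 8 weeks. Activated cells (aB) were cultured with 10 ug per ml of LPS from Salmonella typhimurium, a bacterial ligand of Toll-like receptor signalling, and taken after 3 days; the STARR plasmids, made from open chromatin isolated by FAIRE, had been transfected 12 h or 24 h before that. Resting cells (rB) were the controls and had RNA values; every peak list and the Hi-C list used here came from aB. RNA was measured in 2 aB and 2 rB samples, and each peak assay and Hi-C was given as 1 list with no value per replicate. Whether the 2 RNA replicates of a group were different mice or cultures is not stated, and their p-values cover the spread between those 2 libraries alone, which may be technical.

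B cell markers were present in every RNA sample: Cd79a, a chain of the B cell receptor complex, had 530 and 417 FPKM (fragments scaled for transcript length and library size) in aB and 766 and 706 FPKM in rB, and Ms4a1, which encodes CD20, had 467 and 323 FPKM in aB and 682 and 855 FPKM in rB. Of 8 neuronal marker genes, which the culture should not express, none reached the level needed for the test. The deposited table does not name its unit; its values were treated as FPKM. One read was worth less in the other 3 samples than in aB replicate 1: the commonest ratio of low values put their depth at 1.6 times (aB replicate 2), 1.38 times (rB replicate 1) and 1.35 times (rB replicate 2) that of aB replicate 1. In bulk samples, fewer cells of a type and less RNA per cell cannot be told apart.

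The regions were short. Their widths ran from 97 to 301 bp and 67.4% were exactly 301 bp, so that none stood out as widest. Position relative to the 2 marks was set by the rule and is given as a description. The nearest H3K27ac peak lay at a median of 15.1 kb, and the nearest H3K4me3 peak at a median of 22.8 kb. In 274 regions (10.5%) an H3K27ac peak came within 1 kb, in 748 (28.6%) within 5 kb, and in 350 (13.4%) there was none within 100 kb. The 3 regions just inside the H3K4me3 limit lay 1008, 1024 and 1031 bp from a peak; the 3 STARR peaks just outside it lay 995, 989 and 987 bp away. None of the 2615 fell in the span of a deposited super-enhancer, against 16 of 1582 acetylated distal STARR peaks (1.01%). Those spans are an H3K27ac list, and the rule bars overlap with H3K27ac peaks, so this 0 was largely set in advance. Distal open regions with neither a STARR nor an H3K27ac peak also had 0 of 19989 in such a span.

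Within a chromosome the regions were mostly solitary, with a few dense runs. Of the 2615, 2017 (77.1%, 75.5% to 78.7%) had no other such region within 20 kb, compared with 67.6% (65.2% to 69.8%) of acetylated distal STARR peaks. At the other end, 187 (7.15%, 6.23% to 8.20%) sat in 15 runs of 5 or more with neighbours within 20 kb, compared with 12 acetylated peaks (0.759%, 0.434% to 1.32%) in 2 runs. Distal open regions with neither a STARR nor an H3K27ac peak, of which there were 19989, were clustered more often, with 16.4% in such runs; that class is also the most numerous. These intervals cover counting error only, and neighbouring regions are not independent.

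Chromosomes 4 and X held most of the runs. Of the 15, 9 lay on chromosome 4, 3 on X, 2 on chromosome 8 and 1 on chromosome 3. The longest, at chr4:146701338-146830536 (mm9), held 34 regions along 129 kb at a predicted gene, with another 12 STARR peaks near H3K4me3 and 1 acetylated one. A run of 34 at chrX:92123271-92174012 lay 43.8 kb from Spin4, a spindlin family gene, with no H3K4me3-proximal or acetylated STARR peak inside it and the nearest H3K27ac peak 187 kb away. Of the 38 open chromatin peaks in that X run, 32 carried a STARR peak. The next runs held 15 regions at chr4:146586421-146649175, 15 at chrX:166407830-166422421 inside Mid1, which encodes a microtubule-associated ubiquitin ligase, and 14 at chr8:74326982-74379495 near the zinc finger gene Zfp709.

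A single stretch of chromosome 4, from 145 to 148 Mb (whole Mb around the runs there, drawn after they were seen), held 149 of the regions (5.70%), against 4 acetylated distal STARR peaks (0.253%) and 193 open regions with neither (0.966%). It also held 37 H3K27ac and 44 H3K4me3 peaks. Chromosome 4 as a whole carried 10.4% (9.33% to 11.7%) of the regions, against 6.89% (5.74% to 8.25%) of the acetylated peaks; 124 regions lay on it outside that stretch. Chromosome X carried 64 regions, 2.45% (1.92% to 3.11%), against 7 acetylated peaks, 0.442% (0.215% to 0.911%), and 0.770% of open regions with neither. Runs of 34, 15 and 6 regions made up most of those 64, and few lay elsewhere on X. Loci named as Zfp zinc finger genes were the nearest locus of 60 regions (2.29%), against 13 acetylated peaks (0.822%), and 1.13% of open regions with neither. Counted once per gene, they made up 1.51% of the regions' nearest genes, against 0.870% for acetylated peaks, 1.23% for open regions with neither and 1.52% of all 23812 loci in the RNA table.

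**Figure D1:**
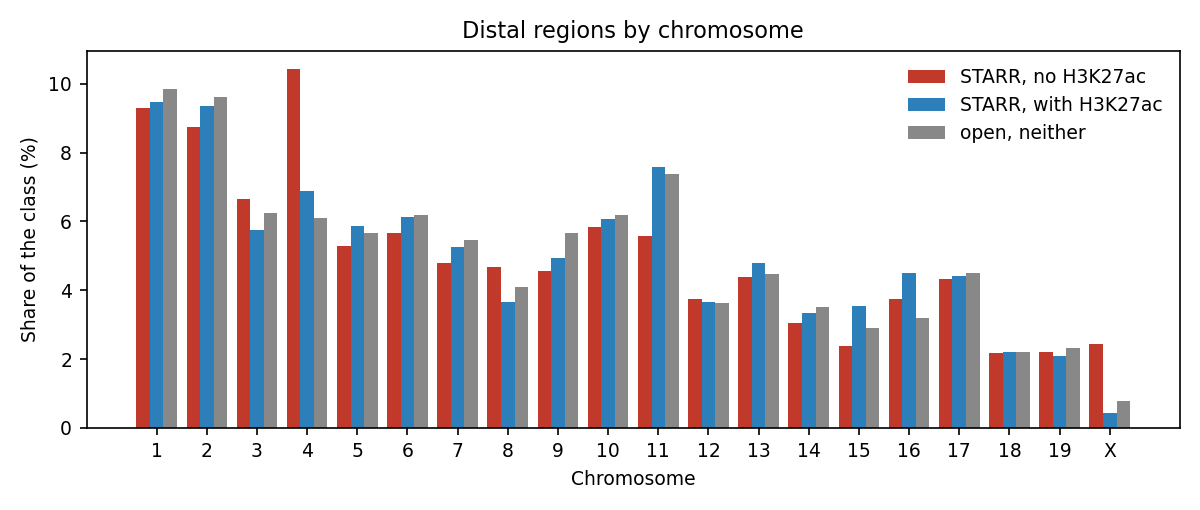
Share of each class of distal region (percent, vertical axis) on each chromosome (horizontal axis): STARR peaks without H3K27ac in red, STARR peaks with H3K27ac in blue, open regions with neither in grey. The red bars stand above the blue ones on chromosome 4 (10.4% against 6.89%) and on X (2.45% against 0.442%). Most of the regions on X lay in a few dense runs.

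The deposited list of STARR peaks is not in genome order, and the meaning of its order is not stated. Along it, the regions were placed differently from acetylated distal peaks at the very top. The first 50 lines held 20 of them and 0 acetylated distal peaks, and the first 100 lines held 25 and 0; the first acetylated distal peak stood on line 145. Beyond the top the 2 classes followed each other: the first decile of the list was 8.81% regions without H3K27ac and 4.74% acetylated distal peaks, and the last decile 31.7% and 17.0%. Of the first 100 lines, 1 was a region from a run of 5 or more.

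**Figure D2:**
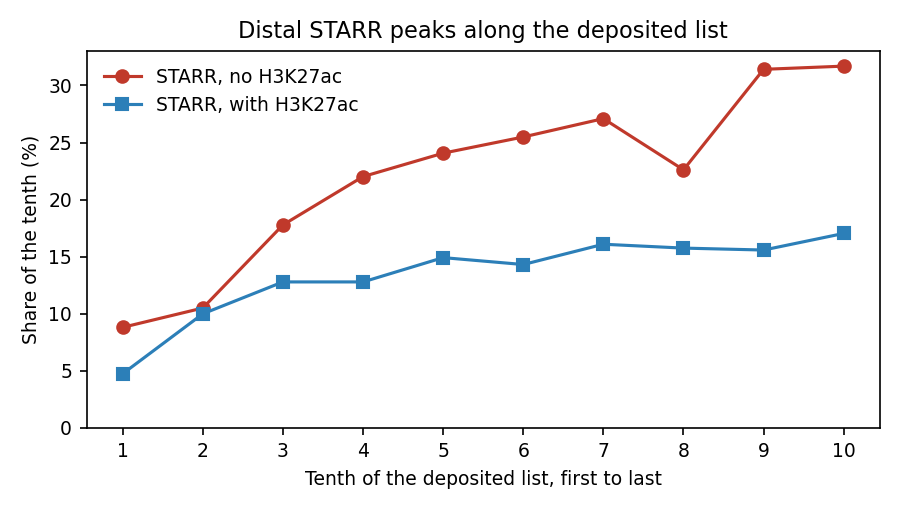
Share of each decile of the deposited list (percent, vertical axis) made up of distal STARR peaks without H3K27ac (red circles) and with H3K27ac (blue squares), from the first decile to the last (horizontal axis). Both shares were lowest in the first decile, at 8.81% and 4.74%, and highest in the last, at 31.7% and 17.0%; the rest of each decile was STARR peaks within 1 kb of H3K4me3.

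Relative to genes, 1139 regions (43.6%, 41.7% to 45.5%) lay inside a locus of the RNA table, against 47.0% (44.6% to 49.5%) of acetylated distal peaks and 53.6% (52.9% to 54.3%) of open regions with neither. The interval for the regions overlaps that of the acetylated peaks and lies below that of the open regions. Those outside a locus were a median of 15.8 kb from one, against 18.4 kb for acetylated peaks and 13.9 kb for open regions, and 140 (5.35%) were over 100 kb from any locus. Exons and introns could not be separated, because the table gives only each locus's outer ends.

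The 2615 regions had 2050 nearest genes: 1716 genes were nearest to 1 region, 234 to 2 and 100 to 3 or more. The median level of these genes was lower than that of the nearest genes of acetylated distal peaks. Their median was 3.75 FPKM in aB and 3.64 FPKM in rB, against 8.68 FPKM in aB and 8.57 FPKM in rB for the 1150 genes nearest to acetylated peaks. Open regions with neither mark nor activity had 8790 nearest genes with medians of 3.15 FPKM in aB and 3.20 FPKM in rB. Of the genes nearest to regions without H3K27ac, 61.1% averaged 1 FPKM or more in aB, against 73.3% for acetylated peaks, 58.3% for open regions and 43.0% of all loci; 227 (11.1%) were at 0 in all 4 samples. Genes nearest to both kinds of distal STARR peak numbered 357, which is 17.4% of the genes of the regions and 31.0% of those of the acetylated peaks. The 1693 genes nearest only to regions without H3K27ac had a median of 2.80 FPKM in aB, against 8.33 FPKM for the 357 shared genes.

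The level of the nearest gene varied with how far the region lay from it. For regions inside a locus the median aB level was 4.47 FPKM (969 genes), at up to 10 kb it was 3.72 FPKM (546 genes), at 10 to 100 kb 3.72 FPKM (603 genes) and beyond 100 kb 0.404 FPKM (111 genes). Acetylated distal peaks had medians of 8.42, 11.2, 8.95 and 11.0 FPKM in the same 4 bins, so the drop beyond 100 kb was not seen among their 60 genes in that bin. Open regions with neither also had a low median there, 0.396 FPKM.

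Distance to H3K27ac went with both the nearest gene's level and the share of regions with a Hi-C contact. Regions within 1 kb of an H3K27ac peak had nearest genes at a median of 7.38 FPKM in aB, and regions at 1 to 10 kb 8.16 FPKM, close to the acetylated peaks' 8.68 FPKM. At 10 to 100 kb the median was 2.99 FPKM, and beyond 100 kb it was 0.0209 FPKM, where 22.9% of 249 genes reached 1 FPKM. The share of regions with a contact in the deposited Hi-C list was 76.6% (71.3% to 81.3%), 75.7% (72.6% to 78.6%), 56.5% (53.7% to 59.3%) and 15.1% (11.8% to 19.3%) in the same order. The 2 near bins were close to the acetylated peaks on both measures, and the far bin was far below them. Distance to H3K4me3 was not held fixed in these bins, and its part was not tested.

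**Figure D3:**
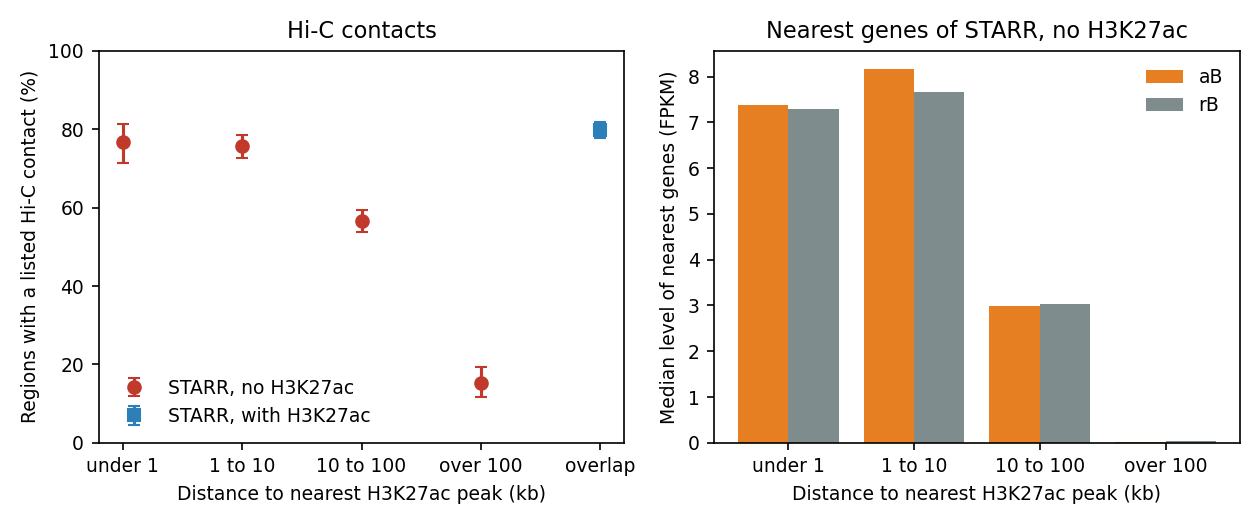
Left, percent of regions with a listed Hi-C contact (vertical axis, with 95% Wilson intervals) by distance to the nearest H3K27ac peak in kb, for distal STARR peaks without H3K27ac (red circles) and, at the right, for those that overlap one (blue square). Right, median FPKM of the nearest genes of the regions without H3K27ac in aB (orange) and rB (grey); contacts fell to 15.1% and the aB median to 0.0209 FPKM beyond 100 kb.

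The RNA values were not used to choose the regions, so aB and rB were compared over the whole table with limma on log2(FPKM + 1). Of 10863 genes tested, 54.4% passed an adjusted p of 0.05 (Benjamini-Hochberg): 28.2% were higher and 26.2% lower in aB. Among the nearest genes of the regions, 1308 were tested; 369 were higher (28.2%) and 380 lower (29.1%), shares near those of all genes. Without rB replicate 1 these counts were 225 and 180, and without rB replicate 2 they were 256 and 187; over all genes they were 1735 and 1229, and 2133 and 1191. Their median log2 change was -0.01, against 0.03 for all genes tested. The nearest genes of acetylated peaks had 27.8% higher and 33.3% lower of 872 tested, and those of open regions 27.8% and 27.6% of 5420. Beyond 100 kb, 10 of 51 tested genes of the regions were higher and 17 lower.

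Leaving out predicted gene names, which were nearest to runs of 34, 15, 11, 10 and 9 regions, 5 of the 10 genes nearest to the most regions were neighbours of the runs. Spin4 was nearest to 29 regions, the closest 43.8 kb away at chrX:92173713-92174012, and was listed at 0 and 0.0247 FPKM in aB and 0 and 0 FPKM in rB. Zfp600, a zinc finger gene, was nearest to 10 and had 0.0198 and 0.0124 FPKM in aB and 0.0287 and 0.0443 FPKM in rB. Speer1-ps1, a pseudogene of the Speer family, was nearest to 8 and had 0.338 and 1.15 FPKM in aB and 0 and 0.0620 FPKM in rB. None of these 3 was expressed highly enough to be tested. Near-identical copies of Speer and clustered zinc finger genes may share reads, so their values are uncertain.

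Mid1 held 15 regions, all inside its locus, and had 10.2 and 10.9 FPKM in aB and 6.46 and 5.79 FPKM in rB. It rose by 0.70 ± 0.15 (SE) on the log2(FPKM + 1) scale in aB (limma adjusted p = 0.00764), a call lost without rB replicate 2 (adjusted p = 0.0735). Zfp709, with 13 regions, had 4.23 and 3.63 FPKM in aB and 5.38 and 5.82 FPKM in rB; the groups did not overlap, and the change of -0.42 did not pass (adjusted p = 0.0615; 0.0416 without aB replicate 1). Zfp868, with 5, had 8.81 and 6.67 FPKM in aB and 15.1 and 13.5 FPKM in rB, a log2 change of -0.82 (adjusted p = 0.00802), lost without rB replicate 1 (adjusted p = 0.0649). No region of Mid1, Spin4, Zfp600 or Zfp868 was joined to that gene by a listed contact. Genes averaging under 1 FPKM in aB, such as Spin4 and Zfp600, were seldom listed at all. They made up 8.30% of the genes reached by the regions' contacts, against 57.0% of all loci. For Spin4 and Zfp600 the absence of a contact is therefore not informative.

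Outside the runs, the genes with the most regions included genes with known parts in B cells. Mef2c, a transcription factor that acts in B cell proliferation after antigen receptor signals, had 5 regions, 2 of them inside its locus, beside 4 acetylated distal peaks. It had 62.5 and 57.0 FPKM in aB and 89.0 and 87.5 FPKM in rB, a log2 change of -0.56 (adjusted p = 0.0378), which did not pass without aB replicate 2 (0.0927), rB replicate 1 (0.200) or rB replicate 2 (0.176). Mbnl1, an RNA splicing regulator, had 5 regions and 90.5 and 100.2 FPKM in aB against 111 and 169 FPKM in rB, and did not pass (adjusted p = 0.124). Phlpp1, a phosphatase that removes phosphate from AKT, had 5 and 6.83 and 5.43 FPKM in aB against 4.46 and 4.62 FPKM in rB, and did not pass (adjusted p = 0.113; 0.0477 without aB replicate 2).

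S1pr1, the sphingosine 1-phosphate receptor that lets lymphocytes leave lymphoid organs, had 5 regions outside its locus, the closest 14.2 kb away at chr3:115432129-115432429, and 1 acetylated distal peak. It had 9.99 and 9.14 FPKM in aB and 126 and 130 FPKM in rB. The aB values were far below both rB values, with a log2 change of -3.61 ± 0.16 (SE) and an adjusted p of 4.02e-05. By Hi-C, 2 regions without H3K27ac were joined to S1pr1.

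Among nearest genes within 100 kb that passed, the 10 largest rises included genes of antibody secretion; 9 of them are described. Igj, the joining chain of polymeric immunoglobulin, had 1173 and 1255 FPKM in aB and 35.8 and 76.6 FPKM in rB (log2 change 4.51 ± 0.36, adjusted p = 0.000185), and its region stood 0.233 kb outside the locus at chr5:88948300-88948599 with 6 contacts. Igj was reached by a contact of 1 region, and no acetylated distal peak was nearest to it.

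Derl3, which acts in degradation of misfolded proteins of the endoplasmic reticulum, had 102 and 113 FPKM in aB and 3.23 and 4.69 FPKM in rB (log2 change 4.46, adjusted p = 3.75e-05). Sec24d, a cargo adaptor of COPII vesicles, had 19.1 and 36.5 FPKM in aB and 1.16 and 1.45 FPKM in rB (log2 change 3.58, adjusted p = 0.000188). These secretory genes each had 1 region, 9.83 kb and 10.4 kb from the locus, and no contact of a region reached either. Eaf2, a partner of the ELL elongation factors, held 1 region inside its locus beside 2 acetylated peaks and had 27.2 and 36.2 FPKM in aB and 1.40 and 2.32 FPKM in rB (log2 change 3.52, adjusted p = 8.24e-05).

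Metabolic and cell division genes made up the rest of the rises. Psat1, of serine synthesis, had 137 and 208 FPKM in aB and 10.0 and 11.9 FPKM in rB (log2 change 3.83, adjusted p = 8.05e-05). Cth, which makes cysteine from cystathionine, had 25.2 and 16.4 FPKM in aB and 0.0350 and 0.0716 FPKM in rB (log2 change 4.34, adjusted p = 5.48e-05). Mki67, the marker of cycling cells Ki-67, had 2 regions, 91.4 and 171 FPKM in aB and 8.59 and 9.79 FPKM in rB (log2 change 3.63, adjusted p = 0.000191). The spindle genes Psrc1 and Ckap2l rose by 3.77 and 3.48 on the log2 scale (adjusted p = 0.000255 and 7.38e-05). In all 9 of these rises both aB samples lay above both rB samples; the rule for naming them required this.

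The 10 largest falls held surface receptors of resting B cells and genes known from macrophages. Cr2, the complement receptor CD21, had 11.5 and 7.18 FPKM in aB and 174 and 158 FPKM in rB (log2 change -4.04 ± 0.24 SE, adjusted p = 6.87e-05), with its region 42.8 kb away. Treml2, a receptor of the TREM family, had 4.85 and 2.37 FPKM in aB and 46.5 and 44.5 FPKM in rB (log2 change -3.39, adjusted p = 0.000153). Actn1, an actin cross-linker, had 0.111 and 0.415 FPKM in aB and 8.41 and 9.54 FPKM in rB (log2 change -2.99, adjusted p = 8.24e-05). Tsc22d1, a leucine zipper regulator, had 1.468 and 1.502 FPKM in aB and 17.6 and 26.6 FPKM in rB (log2 change -3.19, adjusted p = 9.38e-05).

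Cd5l, a secreted macrophage protein, had 0.508 and 0.713 FPKM in aB and 18.0 and 27.9 FPKM in rB (log2 change -3.87, adjusted p = 7.38e-05). Aif1, a macrophage actin-binding protein, had 0.225 and 0.0692 FPKM in aB and 9.05 and 13.9 FPKM in rB (log2 change -3.42, adjusted p = 9.15e-05). Hfe, which regulates iron uptake, had 0.204 and 0.159 FPKM in aB and 11.3 and 13.0 FPKM in rB (log2 change -3.47, adjusted p = 4.51e-05). Markers of red pulp macrophages moved the same way: all 6 of 6 were lower in aB, with sums of 0.218 and 0.574 FPKM in aB and 418 and 451 FPKM in rB, and C1qa and C1qb were at 0 in both aB samples. The summed markers of T cells were 2.72 and 1.79 FPKM in aB and 23.1 and 31.9 FPKM in rB (3 of 3 tested lower). Lck made up 12.2 and 15.2 FPKM of these rB sums. The Cd3d, Cd3e and Cd3g genes were at 0 in aB and too low to be tested. In rB replicate 1 they were also near 0, at 0.0491, 0.135 and 0.0668 FPKM. In rB replicate 2 they had 1.054, 1.289 and 1.495 FPKM. Myeloid markers summed to 12.04 and 14.95 FPKM in aB and 132 and 448 FPKM in rB, with 4 of 6 tested lower. Lyz2 made up 57.0 and 363 FPKM of those rB sums and did not pass (limma adjusted p = 0.0657). Erythroid markers summed to 12.1 and 4.53 FPKM in aB and 411 and 2439 FPKM in rB. The sums of dendritic cell markers overlapped, at 27.4 and 16.5 FPKM in aB and 23.2 and 22.6 FPKM in rB. Of 4 tested, 3 were lower and 1, Flt3, was higher. Of the 7 B cell markers, 6 were lower too, with sums of 5253 and 4085 FPKM in aB and 10621 and 11845 FPKM in rB. Over all genes tested, 26.2% were lower in aB and 28.2% higher. The part of cells other than B cells in the falls was not tested.

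Plbd1, a phospholipase B domain gene, had 4.38 and 1.88 FPKM in aB and 45.2 and 49.6 FPKM in rB (log2 change -3.62, adjusted p = 0.000171), with its region inside the locus. Pisd-ps1, a pseudogene, had 0.0330 and 0.0208 FPKM in aB and 29.7 and 7.82 FPKM in rB (log2 change -4.00, adjusted p = 0.00698). The rB values of Pisd-ps1 differed widely, the call was lost without aB replicate 1 (adjusted p = 0.145) or aB replicate 2 (0.149), and reads shared with its parent gene or other copies make it uncertain.

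**Figure D4:**
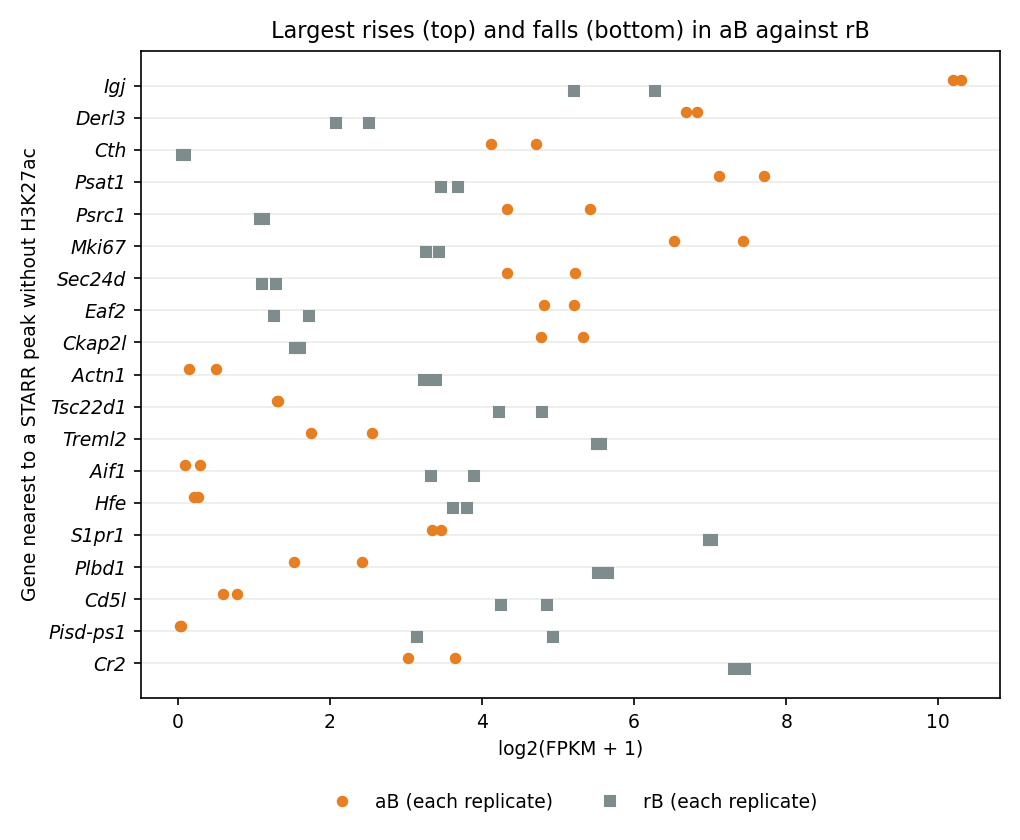
log2(FPKM + 1) of each aB sample (orange circles) and each rB sample (grey squares) for the genes nearest to a distal STARR peak without H3K27ac with the largest rises and falls. Igj at the top had 1173 and 1255 FPKM in aB and 35.8 and 76.6 FPKM in rB; Cr2 at the bottom had 11.5 and 7.18 FPKM in aB and 174 and 158 FPKM in rB.

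Gene lists for B cell biology were counted in the same fit, where 28.2% of all genes tested were higher and 26.2% lower in aB, with a median log2 change of 0.03. Of the plasma cell list, 15 of 17 tested genes were higher in aB and 0 lower, with a median log2 change of 2.37. The 3 nearest to a region, Derl3, Igj and Ell2, were all higher; Ell2, an elongation factor that acts on immunoglobulin mRNA processing, had 71.8 and 92.5 FPKM in aB and 8.37 and 10.0 FPKM in rB (adjusted p = 8.40e-05). Of the homing and quiescence list, 19 of 19 tested genes were lower, with a median log2 change of -1.37, among them all 6 nearest to a region (Btg1, Cxcr4, Fli1, Foxp1, Itga4 and S1pr1). Btg1, an antiproliferative gene with 3 regions, had 49.3 and 19.3 FPKM in aB and 134 and 125 FPKM in rB (adjusted p = 0.00594; 0.0531 without rB replicate 1). Cxcr4, a chemokine receptor with 1 region and 4 acetylated peaks, had 35.3 and 57.9 FPKM in aB and 142 and 84.9 FPKM in rB (adjusted p = 0.0172; 0.0633 without aB replicate 1 and 0.0970 without rB replicate 1).

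Of the B cell identity and receptor list, 17 of 25 were lower and 1 higher (median log2 change -0.97), against 26.2% lower and 28.2% higher over all genes tested; of 6 nearest to a region, 3 were lower and 1 higher. Foxo1, a transcription factor of resting and developing B cells, had 26.2 and 27.9 FPKM in aB and 54.4 and 49.9 FPKM in rB (adjusted p = 0.00381), with 1 region 5.65 kb from its locus and 3 acetylated peaks. Ebf1, a lineage factor, had 22.3 and 14.4 FPKM in aB and 35.9 and 26.9 FPKM in rB, a change of -0.76 (adjusted p = 0.0369) that did not pass without aB replicate 2 (-0.46, adjusted p = 0.138) or rB replicate 1 (0.192). Cd24a, a surface glycoprotein, was the 1 higher gene, at 671 and 1064 FPKM in aB and 315 and 385 FPKM in rB (adjusted p = 0.0122; 0.0847 without rB replicate 1). The Ebf1 region lay inside the locus, 37 bp from an H3K27ac peak, and the locus had 5 acetylated distal peaks.

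Of the NF-kB, AP-1 and activation list, 11 of 33 were higher and 9 lower (median log2 change 0.20), counts near the 28.2% higher and 26.2% lower of all genes tested. Of 7 nearest to a region (Cd44, Cd69, Cflar, Fosl2, Jun, Nfkb1 and Nfkbia), 6 were tested, 2 were higher and 0 lower. Cd44, an adhesion receptor, had 56.2 and 64.9 FPKM in aB and 25.04 and 28.3 FPKM in rB (adjusted p = 0.00212), and 3 regions reached it by Hi-C. Cd69, an early activation antigen, had 72.9 and 69.9 FPKM in aB and 35.5 and 42.5 FPKM in rB (adjusted p = 0.00782; 0.0927 without rB replicate 1). Of the actin and integrin signalling list, 2 of 21 were higher and 9 lower (median log2 change -0.49). Among its 6 nearest genes Itgal, an integrin chain of LFA-1, was higher at 76.1 and 64.8 FPKM in aB and 36.4 and 37.7 FPKM in rB (adjusted p = 0.00599; 0.0581 without rB replicate 1).

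The Rac exchange factors Vav3, Dock2 and Vav1 were lower, and each lost its call without at least 1 library. Vav3 had 2.71 and 1.87 FPKM in aB and 4.64 and 5.75 FPKM in rB (adjusted p = 0.00827; 0.0692 without rB replicate 2). Dock2, with 2 regions inside its locus, had 32.8 and 30.1 FPKM in aB and 49.4 and 44.8 FPKM in rB (adjusted p = 0.0269; 0.0726 without aB replicate 2, 0.185 without rB replicate 1 and 0.1004 without rB replicate 2). Vav1 had 18.7 and 17.6 FPKM in aB and 27.3 and 27.2 FPKM in rB (adjusted p = 0.0176; 0.114 without rB replicate 1 and 0.105 without rB replicate 2). These lists hold genes picked with earlier results of these data known, so their counts describe and do not test them.

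Hi-C ligates pieces of DNA that lie close together in the nucleus, so that a pair sequenced together marks a contact. The deposited list holds 27903 distinct contacts, at anchors of 500, 1000, 2000 or 5000 bp, each with a read count and a z-score. The same pair of places can be listed at several anchor sizes, and each listing was counted as a contact. Nearly all of them, 99.95%, had a STARR peak in open chromatin at an anchor and 96.5% an H3K4me3 peak, so the list is already a selection of enhancer to promoter pairs; the 9.17% of open regions without a STARR peak that had a contact is fixed by that selection. Of the regions without H3K27ac, 1541 had a contact, 58.9% (57.0% to 60.8%), against 79.9% (77.9% to 81.8%) of acetylated distal peaks. The intervals do not overlap, and the order was the same among regions 1 to 10 kb from H3K4me3 (77.7% against 87.3%), among those 10 to 100 kb away (57.9% against 76.6%), and with anchors of 2000 bp or less (34.7% against 48.6%). There is 1 Hi-C list and no replicate error on these shares.

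Regions in the runs had few contacts. In runs of 5 or more, 12 of 187 regions had a contact (6.42%, 3.71% to 10.9%), against 63.0% (61.0% to 64.9%) of the 2428 outside them. Regions in runs lay a median of 36.0 kb from H3K27ac and 59.97 kb from H3K4me3, against 14.6 kb and 22.0 kb outside.

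Linked regions and linked acetylated peaks were then compared by their contacts. The regions took part in 4156 contacts, a median of 2 per linked region and at most 18, against a median of 2 and at most 28 for acetylated peaks. These counts, and the shares by number of contacts, include repeats of a pair at several anchor sizes. For example, chr2:78905550-78905850 was listed with the Itga4 start at both 2000 bp and 5000 bp anchors. Of linked regions, 36.2% (33.8% to 38.6%) had 1 contact, against 29.0% (26.5% to 31.5%) of linked acetylated peaks, and these intervals do not overlap. The share with 5 or more was 16.6% (14.8% to 18.6%), against 18.9% (16.8% to 21.2%), with intervals that overlap. The median contact distance was 333 kb for the regions and 347 kb for acetylated peaks, the median read count 7 for both, and the median z-score 4.17 and 4.15. Distance grew with anchor size, from a median of 6.79 kb at 500 bp anchors to 1083 kb at 5000 bp, and 58.8% of the regions' contacts were listed at 5000 bp. Contacts over 1 Mb were 31.6% (30.2% to 33.0%) for the regions and 35.7% (34.1% to 37.2%) for acetylated peaks, intervals that do not overlap. The far anchor held an H3K4me3 peak in 86.2% (85.1% to 87.2%) of the regions' contacts, against 88.2% (87.1% to 89.2%), and a promoter-proximal STARR peak in 49.7% against 50.9%. A far anchor held a region without H3K27ac in 1.23% of contacts, and overlapped the region itself in 10 of the 4156; every linked region also had a contact without such overlap.

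An anchor is wider than a STARR peak and can hold more than the region. The own anchor also held an H3K27ac peak in 21.9% of the regions' contacts and an H3K4me3 peak in 9.79%. Contacts were then counted only from anchors with no H3K4me3 peak, no H3K27ac peak and no promoter-proximal or acetylated distal STARR peak in open chromatin. Of the regions, 50.9% (49.0% to 52.9%) had such a contact and 47.1% (45.2% to 49.0%) one that led to an H3K4me3 peak. Anchors holding a further region without H3K27ac were kept. Most of the linked share therefore remained when anchors with those marks or those other STARR peaks were left out.

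The genes at the far anchors were compared with the nearest genes. Of the 1541 linked regions, 1427 (92.6%) had a gene locus at a far anchor, and in 213 of these (14.9%, 13.2% to 16.9%) the nearest gene was among the loci reached, against 22.0% (19.7% to 24.4%) for acetylated peaks. The regions reached 2843 genes, of which 506 were also nearest to a region. Linked genes had medians of 13.2 FPKM in aB and 12.3 FPKM in rB, against 3.75 and 3.64 FPKM for nearest genes. The submitters describe the contacts as leading to promoters active by RNA-seq, and the linked genes had a step near 4 FPKM: 139 linked genes averaged 4 to 5 FPKM in aB and 36 averaged 3 to 4 FPKM, whereas over all loci those bands held 521 and 580, and 86.7% of linked genes reached 4 FPKM, against 34.6% of all loci. A nearest gene below that level could seldom be listed as linked, so the share of regions joined to their nearest gene and the level of linked genes are set in part by this selection. Among regions whose nearest gene averaged 4 FPKM or more in aB, a restriction chosen after seeing the data, 195 of 824 (23.7%, 20.9% to 26.7%) were joined to it, against 242 of 826 acetylated peaks (29.3%, 26.3% to 32.5%), and these intervals overlap.

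Of the 2636 linked genes tested, 871 were higher in aB (33.0%) and 564 lower (21.4%), against 28.2% and 26.2% of all genes tested. The excess of higher over lower genes was also present in all genes of that level: among all loci averaging 4 FPKM or more in aB, 32.9% of those tested were higher and 19.0% lower, against 34.2% and 20.04% of linked genes at that level. Without rB replicate 1 the linked genes had 510 higher and 292 lower, and without rB replicate 2 622 and 289. Genes linked to acetylated peaks had 33.3% higher and 22.2% lower. Directions of the linked genes at 4 FPKM or more in aB were thus near those of all loci at that level. A limit on the aB level itself favours genes higher in aB. Among all loci under 1 FPKM in aB, 0 of 714 tested were higher and 646 lower.

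**Figure D5:**
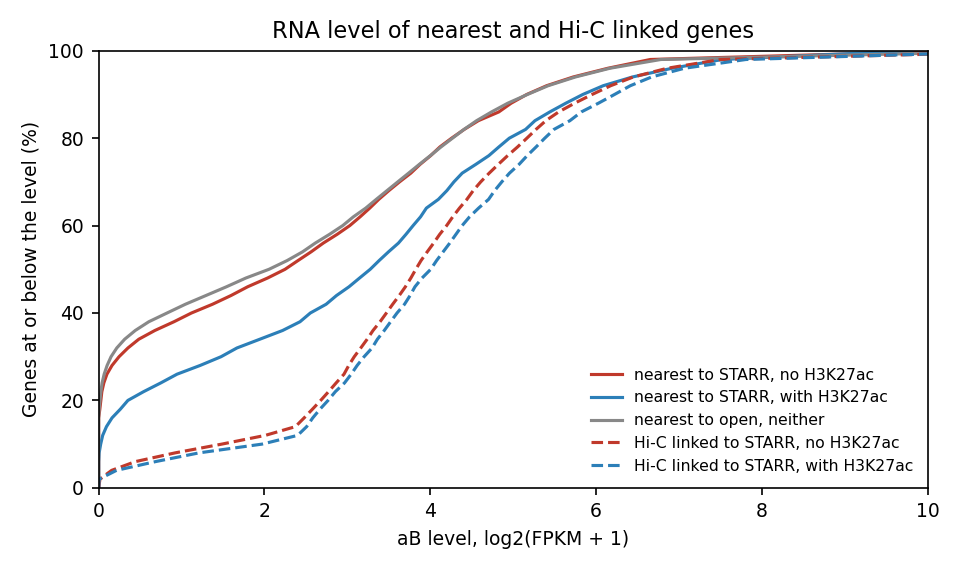
Percent of genes at or below a given aB level (vertical axis) against log2(FPKM + 1) (horizontal axis), for genes nearest to distal STARR peaks without H3K27ac (solid red), with H3K27ac (solid blue) and to open regions with neither (solid grey), and for genes at the far anchor of a Hi-C contact (dashed). The solid red line runs close to the grey one, with medians of 3.75 and 3.15 FPKM, and the dashed lines bend sharply near 4 FPKM.

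The genes joined to the most regions were Tomm70a, Nfkbie, Itga4, Ndufs1 and Cmss1, each reached by 5. They are shown with the sequence upstream of their start, because most far anchors lie there: of 24 distinct far anchors of Tomm70a, Nfkbie, Itga4 and Cmss1, 19 covered the end of the locus where the gene starts. For Tomm70a, Nfkbie, Itga4 and Ndufs1 all 5 regions reached an anchor with an H3K4me3 peak, and for Cmss1 2 of 5 did. The 250 bases before the start, 5′ to 3′ on the gene's strand, were taken from RefSeq (GRCm38.p6, whose coordinates are not those of mm9), and 4 of the 5 genes matched by symbol. Capitals mark matches to any of GGGNNTTCC (a shortened NF-kB motif), TGANTCA (AP-1), ATGCAAAT (octamer), CCGGAAGT (ETS), TGACGTCA (CRE), GGGCGG (GC box), CCAAT and TATAAA, on either strand. The windows are chr16:57121464-57121713 (+), chr17:45555450-45555699 (+), chr2:79255176-79255425 (+) and chr16:57606868-57607117 (-).
Tomm70a: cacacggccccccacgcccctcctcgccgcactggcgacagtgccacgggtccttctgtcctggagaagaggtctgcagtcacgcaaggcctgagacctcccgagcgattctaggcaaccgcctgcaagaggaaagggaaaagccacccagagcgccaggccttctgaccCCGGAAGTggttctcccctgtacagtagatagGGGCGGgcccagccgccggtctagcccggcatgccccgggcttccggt
Nfkbie: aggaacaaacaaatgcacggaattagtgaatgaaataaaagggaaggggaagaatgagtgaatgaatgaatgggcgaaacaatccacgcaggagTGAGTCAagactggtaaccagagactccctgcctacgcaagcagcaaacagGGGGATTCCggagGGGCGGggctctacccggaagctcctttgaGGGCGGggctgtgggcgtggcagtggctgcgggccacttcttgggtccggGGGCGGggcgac
Itga4: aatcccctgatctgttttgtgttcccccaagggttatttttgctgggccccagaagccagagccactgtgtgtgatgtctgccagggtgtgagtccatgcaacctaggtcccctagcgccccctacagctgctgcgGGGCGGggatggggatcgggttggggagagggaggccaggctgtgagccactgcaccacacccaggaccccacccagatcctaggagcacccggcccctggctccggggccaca
Cmss1: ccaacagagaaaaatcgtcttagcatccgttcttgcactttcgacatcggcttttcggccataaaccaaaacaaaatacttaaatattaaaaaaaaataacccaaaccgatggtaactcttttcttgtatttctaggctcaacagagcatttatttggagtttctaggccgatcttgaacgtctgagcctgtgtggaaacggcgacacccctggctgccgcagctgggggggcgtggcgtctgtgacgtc

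Tomm70a held 1 ETS match and 1 GC box, Nfkbie 1 shortened NF-kB match, 1 AP-1 match and 3 GC boxes, Itga4 1 GC box, and Cmss1 none of the 8 motifs. Of 32851 promoters of the same length, 4.98% held the shortened NF-kB motif, 6.75% AP-1, 2.88% ETS and 32.7% a GC box; 1.60% held the octamer, 1.55% CRE, 33.8% CCAAT and 12.4% TATAAA. A match describes these letters and does not show a bound site.

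Nfkbie encodes an inhibitor that holds NF-kB in the cytoplasm. Leaving out 1 contact whose far anchor overlapped the region itself, its contacts spanned 1.94 kb to 10395 kb between anchors, from 35 reads for the closest, at chr17:45689080-45689380, down to 5 reads; the farthest was the region nearest to Aif1, chr17:35305781-35306081. Nfkbie had 48.8 and 32.8 FPKM in aB and 53.0 and 47.8 FPKM in rB; the groups overlapped and it did not pass (adjusted p = 0.267; 0.0405 without aB replicate 1). Its neighbour Hsp90ab1, a cytosolic chaperone reached by 4 regions, had 1080 and 1325 FPKM in aB and 384 and 313 FPKM in rB (log2 change 1.78, adjusted p = 0.00174).

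Itga4, the alpha 4 integrin chain of lymphocyte homing, was reached by 5 regions and by 5 acetylated distal peaks. The regions with the most reads to it were chr2:78973494-78973793 at 121 kb with 65 reads, chr2:78964402-78964702 at 135 kb with 61 reads and chr2:78905550-78905850 at 190 kb with 56 reads, all upstream of the locus. Itga4 had 26.9 and 32.3 FPKM in aB and 56.6 and 49.0 FPKM in rB (log2 change -0.82, adjusted p = 0.00980), a call lost without rB replicate 1 (0.0840).

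Tomm70a, a receptor of the outer mitochondrial membrane for imported proteins, and Cmss1, which lies on the same chromosome, shared 3 regions. Only chr16:57177332-57177632 among them reached the start of both genes. The others, chr16:57577686-57577985 and chr16:57593836-57594136, lay inside the Cmss1 locus. Their Cmss1 contacts led to anchors within that locus that held no H3K4me3 peak. The region at chr16:57177332-57177632 was joined to Tomm70a with 51 reads and to Cmss1 with 24, and chr16:57593836-57594136, inside the Cmss1 locus, reached Tomm70a at 475 kb with 34 reads. The regions chr16:55858442-55858741 and chr16:55863468-55863768 reached Tomm70a by the same contact, at 1260 kb with 7 reads. Which of them made it cannot be told. Tomm70a had 38.7 and 46.2 FPKM in aB and 21.5 and 25.2 FPKM in rB (log2 change 0.83, adjusted p = 0.00828), a call lost without rB replicate 1 (0.0825). Cmss1 had 8.30 and 15.4 FPKM in aB and 1.37 and 1.51 FPKM in rB (log2 change 2.34 ± 0.27 SE, adjusted p = 0.000707).

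Ndufs1, a subunit of respiratory complex I, was reached, again leaving out 1 contact whose far anchor overlapped the region, at 4.80 kb with 6 reads between 500 bp anchors, and from 4 other regions 1373 to 3662 kb away with 5 or 6 reads each. It had 20.5 and 26.9 FPKM in aB and 17.3 and 18.0 FPKM in rB and did not pass (adjusted p = 0.102; 0.0251 without aB replicate 1). Of the genes reached by 4 regions, Cdk4, a kinase that starts the cell cycle, had 118 and 148 FPKM in aB and 40.9 and 44.3 FPKM in rB (log2 change 1.61, adjusted p = 0.000971), and Csda, a cold shock domain protein, had 80.8 and 119 FPKM in aB and 19.6 and 21.4 FPKM in rB (log2 change 2.21, adjusted p = 0.000431). Contacts of Csda spanned 1996 to 2979 kb with 6 reads each. Prkar1a, a regulatory subunit of protein kinase A, and Srp14, of the signal recognition particle, did not pass, with log2 changes of 0.04 each (adjusted p = 0.881 and 0.889), and both changed sign with median centring or with 1 library left out.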

How the data were processed

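Mouse B cell STARR-seq, FAIRE-seq, ChIP-seq and Hi-C lists and 1 RNA table were used. The authors deposited peak intervals on mm9 with no score; Bowtie, Bowtie2, STAR, TopHat2, HOMER and bedtools are named in the submitters' processing notes, with no role given. RNA values in the deposited table carry no unit and were read as FPKM. Each deposited contact has a read count, a z-score (a score) and a log p. The aligner settings and annotation are not given in the sources used here. H3K4me1 and nascent RNA were not analysed here.

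Duplicate intervals were removed. Distances ran between interval edges, overlap meant 1 bp or more, a locus was the outer span in the RNA table, and a contact was assigned when an anchor overlapped a region. RNA was compared with limma 3.58.1 (R 4.3.3, trend and robust) on log2(FPKM + 1), two-sided, with Benjamini-Hochberg adjustment. The fit covered 10863 genes with 1 FPKM or more in at least 2 samples. It was also run on simulated data with far fewer changed genes than were called here, which does not bear on these calls. Genes were named by count of nearest regions (10), count of Hi-C regions (10), largest rise and fall (10 each, within 100 kb, a mean of 5 FPKM or more in the higher group and groups that do not overlap), and up to 4 called genes per list, leaving out predicted names, immunoglobulin segments and symbols on more than 1 row. Of the RNA rows, 767 shared a symbol and 27 symbols had turned into dates; they were counted, not named. Regions, rules and lists were chosen with earlier results of these data known. Peak and contact lists have no replicates, so shares carry 95% Wilson intervals for counting error only. No mm9 genome was used here, so no sequence of the regions is printed; promoter letters came from RefSeq (GRCm38.p6). Python 3.11.15 with pandas 2.3.3, numpy 2.4.6 and scipy 1.17.1 was used. Alternatives covered the distance limits, H3K27ac overlap, nearest gene rule, anchors, pseudocount, filter, centring, limma options, each RNA library left out and a replicate block; leaving out runs and using anchors of 2 kb or less were added after the data were seen. One gene among the largest rises and 1 B cell marker are not reported here.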

Additional observations from a re-analysis of the deposited data

How the results depend on the processing

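The share of regions with a Hi-C contact, 58.9%, was 55.0% for regions more than 5 kb from H3K4me3, 56.9% with no H3K27ac peak within 1 kb, 63.0% without runs of 5 or more, 62.1% for anchors within 5 kb, 41.3% for the stronger contacts by p and 34.7% for anchors of 2 kb or less (fewer contacts in the last 2). The median distance to H3K27ac, 15.1 kb, was 19.4 kb beyond 5 kb of H3K4me3, 13.2 kb with only H3K4me3 overlap barred, 18.3 kb with none within 1 kb, and 13.1 kb where some H3K27ac overlap was let in. The median aB level of nearest genes, 3.75 FPKM, was 2.98 FPKM beyond 5 kb and 9.87 FPKM with expressed loci alone as candidates. Linked genes higher and lower fell to 487 and 327 with the stronger contacts. Leaving out each RNA library in turn gave 1735 to 2859 higher and 1191 to 2834 lower over all genes, 225 to 344 and 180 to 393 for nearest genes, and 510 to 861 and 289 to 558 for linked genes. With a replicate block, whose pairing the labels do not state (2 pairs, correlation of deviations 0.1244), 393 nearest genes were higher and 394 lower. Prkar1a turned to -0.023 with median centring and ran from -0.089 to 0.16 with a library left out, and Srp14 turned to -0.022 and ran from -0.14 to 0.22; the cause was not tested and neither passed. With a pseudocount of 0.1, changes of genes near 0 in 1 group grew, to 7.07 for Cth, -6.92 for Pisd-ps1, -5.45 for Hfe, -5.59 for Aif1 and -4.78 for Actn1. Of 48 named genes, 27 kept direction and call under every alternative in which they were tested. Among these, Cth was not tested with either aB library left out. Cd5l, Hfe, Aif1 and Actn1 were not tested with either rB library left out. Each then failed the filter on low values. Other counts and shares stayed within their limits. With 2 samples a group and 1 list per assay, depth and replicate spread limit small changes, and the peak lists give no depth per region.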
